A study of Mus musculus with 6 samples.

Results

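The 7 genes that encode the inhibitors of cyclin-dependent kinases (CDKs) were taken by name: Cdkn1a, Cdkn1b and Cdkn1c of the CIP/KIP family and Cdkn2a, Cdkn2b, Cdkn2c and Cdkn2d of the INK4 family. All 7 were present among the 50686 gene identifiers of the count files, and all 7 passed the filter on low counts that left 16729 genes for testing. The samples were induced pluripotent stem cells (iPSCs) that had been made from mouse gingival fibroblasts, grown as embryoid bodies, exposed to retinoic acid and attached to gelatin-coated plates. In the ICF group, intermittent compressive force (ICF) of 1.5 g per square centimetre at 0.23 Hz was applied for 24 h in serum-free medium. The control group was left without load for the same 24 h, and its medium is not stated separately. Each group had 3 samples, labelled as donors 1 to 3 and called replicates here. The methods speak of independent experiments and do not say how many iPSC lines were used.

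CDK inhibitors are the brakes of the cell cycle. CIP/KIP proteins bind whole cyclin-CDK complexes, those of cyclins E and A with Cdk2 above all, whereas INK4 proteins bind Cdk4 and Cdk6 and keep them from the D cyclins. Much of their control lies in protein turnover and not in mRNA, and mouse pluripotent cells are known for short gap phases with little CDK inhibition, which lengthen on differentiation.

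With ICF, 1 of the 7 genes changed in the comparison of 3 against 3 samples: Cdkn1a, the gene of p21, rose to 67.4 ± 17.2 CPM (SD, n = 3) from 40.9 ± 3.75 CPM (SD, n = 3). CPM, counts scaled to a common library size with TMM factors, is used throughout. In RNA from whole cultures, more cells of a type and more RNA per cell cannot be told apart. In the same test 3.47% of all genes were higher and 4.38% were lower with ICF. None of the 7 was lower. When samples of the same donor number were compared as pairs, Cdkn2b (p15) and Cdkn1c (p57) passed as well. That made 3 of 7, where 14.6% of all genes were higher and 15.3% lower in the paired fit, again with none of the 7 lower. With only 3 pairs, the p-values of that fit rest mostly on variance shared across genes and measure little of the spread between pairs. Cdkn1b (p27), Cdkn2a, Cdkn2c (p18) and Cdkn2d (p19Ink4d) passed in neither fit.

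The files held 28711166 to 34194413 counts on genes a sample. ICF replicate 3 stands apart, and its total and counts do not compare directly with those of the other samples. In it, 89.0% of the counts above 0 could be divided by 4, where the remaining samples had 20.3% to 21.5%, and it had fewer genes with a count. With it left out of the unpaired edgeR fit, the log2 fold change of Cdkn1a was 0.50, of Cdkn1b -0.16, of Cdkn1c -0.04, of Cdkn2a -0.001, of Cdkn2b 0.37, of Cdkn2c 0.34 and of Cdkn2d -0.05, and Cdkn1a was again the member that passed. The pluripotency markers were high in all samples, with a summed level of 4160 to 4772 CPM in the control and 3942 to 4215 CPM with ICF, Pou5f1 and Nanog included.

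**Figure D1:**
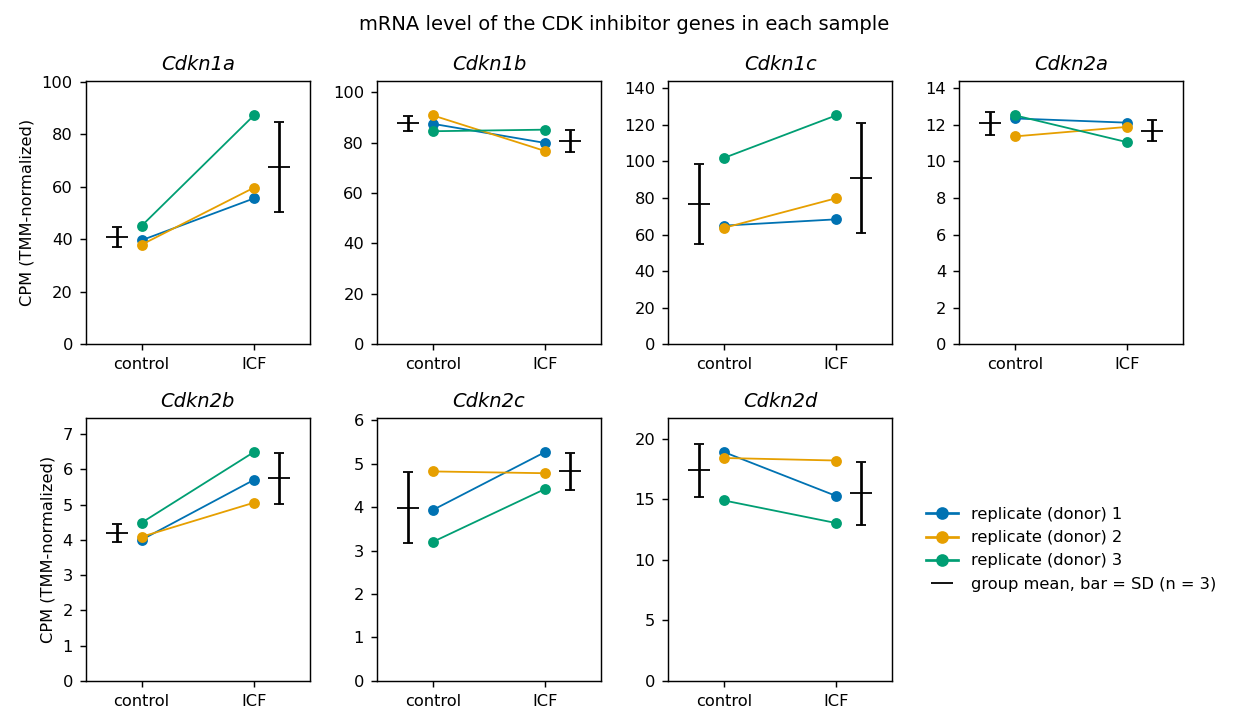
Level of each CDK inhibitor gene in CPM in the 3 control and 3 ICF samples, with lines joining samples of the same donor number and black marks for the mean and SD. All ICF samples lie above all control samples for Cdkn1a and Cdkn2b, and replicate 3 is the highest of each group for Cdkn1c (102 and 125 CPM).

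Levels of different genes can be compared only per length, so CPM was divided by the merged exon length in kb. On this scale Cdkn1c was the highest of the 7, with a mean of 41.2 CPM per kb over the 6 samples and a range of 31.2 to 61.4. It was followed by Cdkn1b at 18.5 (16.9 to 20.0), Cdkn1a at 15.2 (10.7 to 24.5), Cdkn2d at 10.5 (8.29 to 12.02), Cdkn2a at 10.1 (9.43 to 10.7), Cdkn2b at 3.58 (2.88 to 4.67) and Cdkn2c at 1.64 (1.19 to 1.96). The ranges of Cdkn1b and Cdkn1a, of Cdkn1a and Cdkn2d, and of Cdkn2d and Cdkn2a overlapped, whereas those of Cdkn1c and Cdkn1b, Cdkn2a and Cdkn2b, and Cdkn2b and Cdkn2c did not. Cdkn1a had rank 3 in the control (11.5 ± 1.06 CPM per kb, SD, n = 3), below Cdkn1b (19.3 ± 0.69, SD, n = 3). With ICF it had rank 2 (19.0 ± 4.84, SD, n = 3) and Cdkn1b rank 3 (17.7 ± 0.94, SD, n = 3), though with ICF the samples of these genes overlapped. The order depends on the length used: per kb of its longest transcript, Cdkn1a had a mean of 26.0 and stood above Cdkn1b in both groups. On that scale Cdkn2a (13.3) also stood above Cdkn2d (11.6), and the ranges of Cdkn1c and Cdkn1a overlapped.

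**Figure D2:**
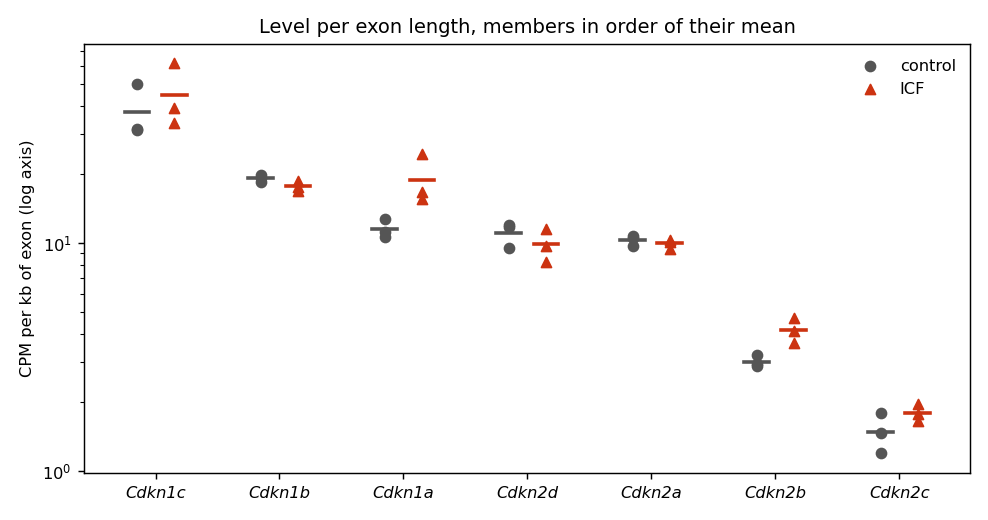
Level of each gene per kb of merged exon, on a log axis, in the 3 control samples (circles) and 3 ICF samples (triangles), with a line at each group mean. Cdkn1c is at the top, Cdkn2c at the bottom, and Cdkn1a moves from 11.5 to 19.0 CPM per kb.

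Sums and shares of the families depend on the gene length used, and only the merged exon length was used for them. On that scale the CIP/KIP genes summed to 61.8 to 81.2 CPM per kb in the control and 66.7 to 104.7 with ICF. For the INK4 genes the sum ranged from 24.6 to 26.9 without load and from 24.0 to 27.1 under load. Both sums overlapped between the groups. Within the CIP/KIP sum, Cdkn1a made up 15.6% to 17.9% in the control and 23.0% to 23.4% with ICF, and these ranges did not overlap. This share reuses the levels of Cdkn1a, so it is no separate evidence of their rise. The share of Cdkn1b was 22.9% to 32.3% in the control and 17.9% to 26.3% with ICF, and that of Cdkn1c 50.5% to 61.5% and 50.2% to 58.7%, with overlap in each case. Within the INK4 sum, Cdkn2b made up 10.7% to 13.1% in control samples and 13.4% to 19.4% in ICF samples, a narrow gap. The shares of Cdkn2a, Cdkn2c and Cdkn2d overlapped between the groups.

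Cdkn1a encodes p21, the inhibitor that p53 induces and that halts the cell cycle after stress or DNA damage. The gene (ENSMUSG00000023067) lies on chromosome 17 of GRCm38, on the forward strand from 29090976 to 29100727, with 5 annotated transcripts. They begin at starts that include an upstream one and one 2790 bases further down. The stretch before each start is shown because Cdkn1a is the member that rose and because the upstream start carries matches to the p53 decamer, the repeat unit of p53 response elements. The first lies at chr17:29090859-29090978 and the other at chr17:29093649-29093768, both on the forward strand of GRCm38.p6 as given by RefSeq, each 120 bases ending just before the start. Capitals mark the p53 decamer in the first and GGGCGG, the GC box, in the second.

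Cdkn1a upstream start: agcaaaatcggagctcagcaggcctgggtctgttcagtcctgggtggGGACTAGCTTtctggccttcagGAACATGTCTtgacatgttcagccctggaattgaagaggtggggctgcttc

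Cdkn1a downstream start: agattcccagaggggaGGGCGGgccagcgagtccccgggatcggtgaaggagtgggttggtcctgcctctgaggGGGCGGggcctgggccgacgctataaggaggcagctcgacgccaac

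The RefSeq table held windows of 300 bases around a start for 6 of the 7 genes, 9 windows in all, and Cdkn1c was not matched. Each window was searched on both strands for the TATA box TATAAA, the GC box GGGCGG, the CCAAT box, the E-box CACGTG and the p53 decamer. The decamer matched at 73 and 51 bases before the upstream start of Cdkn1a, and in 8.36% of the 32851 windows of all genes. Among the 9 windows it also occurred in that of Cdkn2d, once, where it overlapped a GC box. The GC box occurred in 7 of the 9 windows and in 35.7% of all. The CCAAT box occurred in 4 of the 9 and in 37.4% of all, the E-box in 1 of the 9 and in 7.15% of all, and the TATA box in 0 of the 9 and in 13.6% of all. These matches describe letters only and say nothing of binding in these cells, and gene counts do not tell which start was used.

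The Cdkn1a level was 39.6, 37.9 and 45.1 CPM in control replicates 1 to 3 (1157, 1187 and 1296 counts) and 55.5, 59.6 and 87.1 CPM in ICF replicates 1 to 3 (1928, 1969 and 2524 counts). Every ICF sample lay above every control sample, and ICF replicate 3, with most of its counts divisible by 4, lay well above the other ICF samples. ICF changed Cdkn1a by 0.72 on the log2 scale (SE 0.22, adjusted p = 0.031 in edgeR's quasi-likelihood test). The paired edgeR fit gave 0.70 with an adjusted p of 4.8e-10, which rests mostly on variance shared across genes. With only 3 pairs, that p measures little of the spread between them. The exact two-sided permutation test gave p = 0.1, the smallest that 3 samples against 3 allow. In pairs 1, 2 and 3 the log2 ratio of ICF to control was 0.49, 0.65 and 0.95. Without ICF replicate 3 the fold change was 0.50 (adjusted p = 0.011, edgeR). Without control replicate 1 or control replicate 2 the fold change was 0.70 or 0.67 and the adjusted p of the edgeR test was 0.13 or 0.14, above the threshold of 0.05. On the opposite strand, 7.7% of its exonic bases overlap AC167363.2, an annotated gene that was not analysed here.

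Cdkn1b encodes p27, the inhibitor whose protein accumulates in quiescent cells. The gene (ENSMUSG00000003031) lies on chromosome 6, on the forward strand from 134920401 to 134925513. The Cdkn1b level was 87.5, 90.9 and 84.6 CPM in the control and 79.9, 76.7 and 85.2 CPM with ICF. Values were lower with ICF in pairs 1 and 2, by -0.13 and -0.24 on the log2 scale, and about level in pair 3 (0.01), and the groups overlapped through replicate 3. For Cdkn1b the log2 fold change with ICF was -0.12 (SE 0.05, adjusted p = 0.28, edgeR), and the paired fit gave an adjusted p of 0.098. With pair 3 left out of the paired edgeR fit it was -0.19 with an adjusted p of 0.03, from only 2 pairs.

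Cdkn1c encodes p57, the imprinted member of the family, which is expressed from the maternal copy and restrains growth in the embryo. It lies on chromosome 7 (ENSMUSG00000037664), on the reverse strand from 143458339 to 143461050. The Cdkn1c level was 64.9, 63.6 and 102 CPM in the control and 68.3, 79.9 and 125 CPM with ICF. Replicate 3 was the highest sample in both groups, and the spread between replicates exceeded the difference between the groups, which overlapped. The fitted difference for Cdkn1c was 0.25 on the log2 scale (SE 0.34, adjusted p = 0.57, edgeR). The pairs gave 0.07, 0.33 and 0.30, all higher with ICF, and the paired edgeR fit gave 0.24 with an adjusted p of 0.0016. With pair 1, 2 or 3 left out, the adjusted p was 9.5e-05, 0.021 or 0.022 (paired edgeR fit). These fits hold only 2 pairs, and the full paired fit only 3. Their p-values thus rest mostly on variance shared across genes and measure little of the spread between replicates. In the unpaired fit without ICF replicate 3 the log2 fold change was -0.04 (adjusted p = 0.91, edgeR), with control replicate 3, the highest control sample, still included. Of its exonic bases, 30.7% overlap Gm44732 on the opposite strand. The count files gave Gm44732 0.35 ± 0.13 CPM in the control and 0.30 ± 0.14 with ICF (SD, n = 3), and the strand setting of the counting is not given in the sources used here.

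Cdkn2b encodes p15, the INK4 inhibitor known as a target of TGF-β. The gene (ENSMUSG00000073802) lies on chromosome 4, on the reverse strand from 89306299 to 89311039, as a neighbour of Cdkn2a with a gap of 11646 bases. The Cdkn2b level was 4.003, 4.09 and 4.49 CPM in the control (117, 128 and 129 counts) and 5.70, 5.05 and 6.49 CPM with ICF (198, 167 and 188 counts). Every ICF sample lay above every control sample. The highest was ICF replicate 3, most of whose counts could be divided by 4, so its count does not compare directly with the others. Its log2 fold change of 0.45 (SE 0.11) missed the threshold in the unpaired edgeR fit (adjusted p = 0.088). The pairs gave 0.50, 0.30 and 0.53, and in the paired edgeR fit the adjusted p was 0.012. With pair 1, 2 or 3 left out of that fit it was 0.11, 0.03 or 0.025, and with DESeq2 it was 0.079 without and 0.12 with the block. Leaving out 1 of the 6 samples in turn kept the fold change between 0.37 and 0.54.

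Cdkn2a holds a pair of overlapping reading frames, those of p16Ink4a, which binds Cdk4 and Cdk6, and of p19Arf, which holds Mdm2 away from p53. It lies on chromosome 4 (ENSMUSG00000044303), on the reverse strand from 89274471 to 89294653. Its 2 annotated transcripts begin 12427 bases apart in the RefSeq table, and the counts per gene add them together, so p16Ink4a and p19Arf could not be told apart. The Cdkn2a level was 12.4, 11.4 and 12.5 CPM in the control and 12.1, 11.9 and 11.0 CPM with ICF. The groups overlapped and had the narrowest spread for their level of the INK4 genes. Cdkn2a differed by -0.05 on the log2 scale (SE 0.06, adjusted p = 0.80, edgeR), and the pairs gave -0.03, 0.06 and -0.18.

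Cdkn2c encodes p18 and lies on chromosome 4 (ENSMUSG00000028551), on the reverse strand from 109660876 to 109667189. Like the other INK4 proteins it holds Cdk4 and Cdk6. The Cdkn2c level was 3.93, 4.82 and 3.20 CPM in the control and 5.27, 4.78 and 4.42 CPM with ICF, and the groups overlapped through replicate 2 of the control. Cdkn2c differed by 0.27 on the log2 scale (SE 0.18, adjusted p = 0.37, edgeR). Cdkn2d encodes p19Ink4d and lies on chromosome 9 (ENSMUSG00000096472), on the reverse strand from 21288410 to 21291407. The Cdkn2d level was 18.9, 18.4 and 14.9 CPM in the control and 15.3, 18.2 and 13.05 CPM with ICF, with replicate 3 the lowest of each group and overlap between the groups. Cdkn2d differed by -0.17 (SE 0.18, adjusted p = 0.51, edgeR). In the pairs Cdkn2c changed by 0.42, -0.01 and 0.46 and Cdkn2d by -0.31, -0.02 and -0.19.

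**Figure D3:**
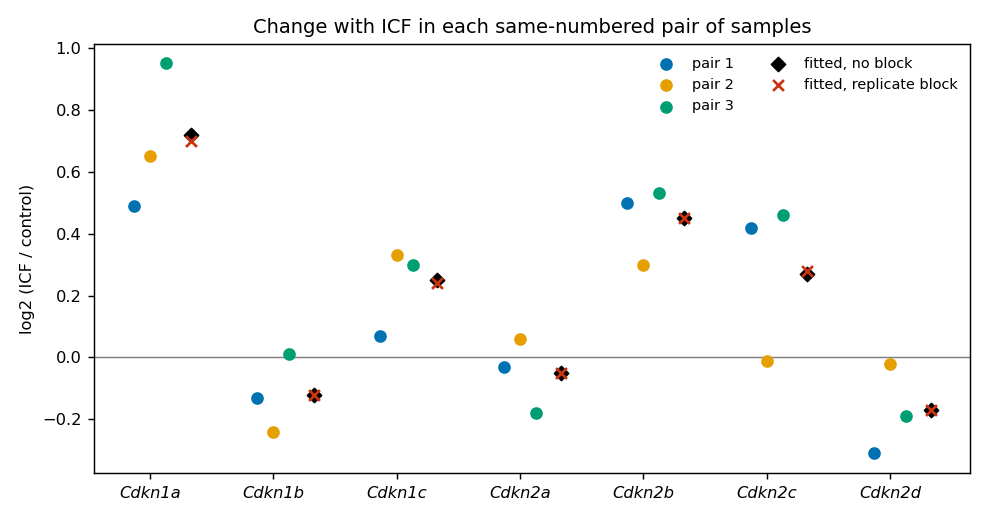
The log2 ratio of ICF to control in each same-numbered pair of samples (circles) and the fitted log2 fold changes without (diamonds) and with the replicate block (crosses). All 3 pairs are above 0 for Cdkn1a, Cdkn1c and Cdkn2b, all 3 are below 0 for Cdkn2d, and Cdkn1b, Cdkn2a and Cdkn2c have pairs on both sides.

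Groups of samples without overlap were found for 2 of the 7 genes, Cdkn1a and Cdkn2b, with ICF higher in both. Of all genes tested, 15.6% had every ICF sample above every control sample and 15.7% had every ICF sample below. The shares of the 7 genes rest on few genes and are a description.

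Ratios within a sample do not depend on how libraries were scaled. Cdkn1a is the numerator of every ratio here, so they reuse its values and are no separate evidence of its rise. Per length, the log2 ratio of Cdkn1a to Cdkn1b was -0.79, -0.90 and -0.55 in control samples, against -0.17, -0.01 and 0.39 in ICF samples, a difference of 0.82 between the group means. The ratio of Cdkn1a to Cdkn1c was -1.51, -1.55 and -1.98 in control samples, against -1.10, -1.22 and -1.32 in ICF samples. Its groups did not overlap although replicate 3 was high for both genes. Ratios to Cdkn2a and Cdkn2d were also apart, with differences of 0.74 and 0.87. The ratios to Cdkn2b and Cdkn2c overlapped between the groups, with differences of 0.25 and 0.41. From control to ICF within pairs 1, 2 and 3, the ratio to Cdkn2c went from 2.93 to 2.99, from 2.57 to 3.24 and from 3.41 to 3.90, higher in all 3. That to Cdkn2b went from 1.95 to 1.93, from 1.86 to 2.21 and from 1.97 to 2.39, higher in pairs 2 and 3.

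The genes around each member were examined within 50 kb on either side. Upstream of Cdkn1a, Trp53cor1, the long noncoding RNA also known as lincRNA-p21, had at most 16 counts in a sample and a log2 fold change of 0.59 (adjusted p = 0.48, edgeR). Srsf3, a splicing factor gene, was at 533 ± 21.7 CPM in the control and 574 ± 27.2 CPM with ICF (SD, n = 3; adjusted p = 0.31, edgeR). Lockd, the noncoding RNA downstream of Cdkn1b, was at 10.1 ± 0.17 and 10.3 ± 0.35 CPM (SD, n = 3), with a log2 fold change of 0.02. Beside Cdkn1c, in the same imprinted cluster, Phlda2 had a log2 fold change of 0.14 and Slc22a18 of -0.12 (adjusted p = 0.55 and 0.76, edgeR), and Kcnq1 had at most 9 counts in a sample. None of the other neighbours passed the threshold in the unpaired fit. With the replicate block, Keap1 near Cdkn2d passed (log2 fold change 0.20, adjusted p = 0.02, paired edgeR fit).

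For this list and those that follow, the share of all genes was 3.47% higher and 4.38% lower, and 14.6% and 15.3% in the paired fit. The lists are short, so their counts are a description. Among the kinases and cyclins that the inhibitors act on, calls went in both directions. Among the 5 INK4 partners (Cdk4, Cdk6 and the D cyclins) 1 was higher and 1 lower, and in the paired fit 2 and 2, with a median log2 fold change of -0.02 where that of all genes was 0.00. Ccnd1 (cyclin D1) rose to 133 from 106 CPM (log2 fold change 0.33, adjusted p = 0.016, edgeR), whereas Ccnd2 (cyclin D2) fell to 48.6 from 72.2 CPM (-0.57, adjusted p = 0.0064). Cdk4, a kinase of the D cyclins, stood at 565 and 556 CPM (-0.02, adjusted p = 0.86, edgeR). Cdk6, the other kinase that INK4 proteins bind, and Ccnd3 passed in the paired fit only, at 0.33 and -0.15 (adjusted p = 0.001 and 0.019, paired edgeR fit). Among the 8 CIP/KIP partners (Cdk1, Cdk2 and the E, A and B cyclins) 0 were higher and 1 lower, and in the paired fit 2 and 3, with a median of -0.11. Ccnb2, a B cyclin, fell to 148.5 from 209 CPM (-0.49, adjusted p = 0.015, edgeR). Cdk2, the kinase that p21 and p27 bind, had a log2 fold change of -0.01 (adjusted p = 0.96, edgeR), and Ccne2, its E cyclin, of 0.36 with an adjusted p of 0.15, and 4.8e-04 in the paired fit. Ccne1, the other E cyclin, was at 0.16, and Cdk1 and Ccnb1, kinase and cyclin of mitosis, were at -0.21 and -0.13, and these too passed in the paired fit only (adjusted p = 0.014, 0.0011 and 0.04).

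Among the 13 pocket proteins and E2F factors, which carry the signal from the CDKs to S phase genes, 1 was higher and 0 lower, and in the paired edgeR fit 5 and 1, with a median log2 fold change of 0.11. E2f6, a repressor of the family, rose by 0.25 on the log2 scale (adjusted p = 0.047, edgeR). With pairs, Rbl2, a pocket protein (0.31), E2f3, E2f7 and Tfdp1 (0.19, 0.18 and 0.18) were higher as well, and E2f1, an activator of S phase genes, was lower (-0.17, adjusted p = 0.025, paired edgeR fit). Of 14 genes for the turnover of CIP/KIP proteins, 0 were higher and 2 lower, and in the paired edgeR fit 1 and 5, with a median of -0.03. Cul4a and Ddb1, scaffold and adaptor of the ubiquitin ligase that degrades p21 during replication, fell by 0.25 and 0.22 on the log2 scale (adjusted p = 0.033 and 0.044, edgeR). Dtl, Cul4b and Pcna of the same list had log2 fold changes of 0.00, 0.08 and 0.09 and passed in neither fit. Skp2, the receptor that marks p27 for degradation, had a log2 fold change of 0.08 (adjusted p = 0.43, edgeR). Cdc20 and Fzr1, the activators of the anaphase-promoting complex, were at -0.25 and -0.20, and Skp1a and Cul1, parts of the Skp2 ligase, at -0.16 and 0.13. These 4 passed in the paired fit only.

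Regulators of the members' transcription were listed by role, and their counts too stand beside 3.47% and 4.38% of all genes (14.6% and 15.3% paired). Of 16 activators tested, 1 was higher and 0 lower, and in the paired fit 2 and 2, with a median log2 fold change of 0.02. Trp53, the gene of p53, was at 437 CPM in the control and 448 CPM with ICF (0.03, adjusted p = 0.80, edgeR), and Trp73, its relative, rose to 9.63 from 3.05 CPM (1.66, adjusted p = 0.0041). Klf4, a reprogramming factor that activates Cdkn1a, and Kdm6b, a demethylase that opens the Cdkn2a locus, were at -0.28 and -0.36 and lower in the paired edgeR fit only (adjusted p = 5.3e-05 and 1e-05), and Ets1 was at 0.23 and higher there (0.016). Of 21 repressors, 3 were higher and 0 lower, and in the paired fit 4 and 1, with a median of 0.09. The 3 were Bmi1, a Polycomb protein known for repression of Cdkn2a (0.43, adjusted p = 0.026, edgeR), Tbx3, a T-box repressor of the same locus (0.39, adjusted p = 0.018), and Id3, an inhibitor of E proteins (0.46, adjusted p = 0.021). Id2 (0.23) and Cbx7, a Polycomb protein (-0.13), passed in the paired fit only.

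Of 22 other targets of p53, 13 were higher and 0 lower, and in the paired fit 14 and 3, with a median log2 fold change of 0.44. Several of these genes were picked by the study from the same samples, so this count is no independent evidence of the direction. The largest rise was that of Trp53inp1, a stress-induced p53 cofactor (1.26, adjusted p = 0.009, edgeR), followed by Plk2, a stress-induced kinase (1.18), Phlda3, an inhibitor of Akt signaling (1.01), Ccng1, cyclin G1 (1.00), and Eda2r, a death receptor (0.90). The 0.72 of Cdkn1a lay below each of these and below Mdm2 (0.78), Polk (0.77) and Btg2 (0.74). It was above the rest of the 13, such as Zmat3 (0.28). Sesn1, Gadd45a and Xpc, p53 targets too, had log2 fold changes of -0.21, -0.19 and -0.20 and were lower in the paired edgeR fit only (adjusted p = 0.023, 0.0076 and 0.025).

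In the TGF-β arm of 12 genes, 0 were higher and 1 lower, and in the paired edgeR fit 3 and 2, with a median log2 fold change of 0.13. Skil, a brake on SMAD activity, fell by 0.50 (adjusted p = 0.048, edgeR). Tgfb1, the ligand, was at 0.46 (adjusted p = 0.055, and 0.0016 in the paired edgeR fit), and its receptors Tgfbr1 and Tgfbr2 were at 0.23 and -0.25 and passed in the paired fit only. Of 11 senescence-associated genes tested, 0 were higher and 0 lower, and in the paired edgeR fit 2 and 1, with a median of 0.03. Among these were Igfbp7 (0.63) and Glb1, the lysosomal galactosidase (-0.20). Lmnb1, the lamin gene that falls in senescent cells, had a log2 fold change of 0.06 (adjusted p = 0.59, edgeR), and Il6 had at most 4 counts in a sample.

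**Figure D4:**
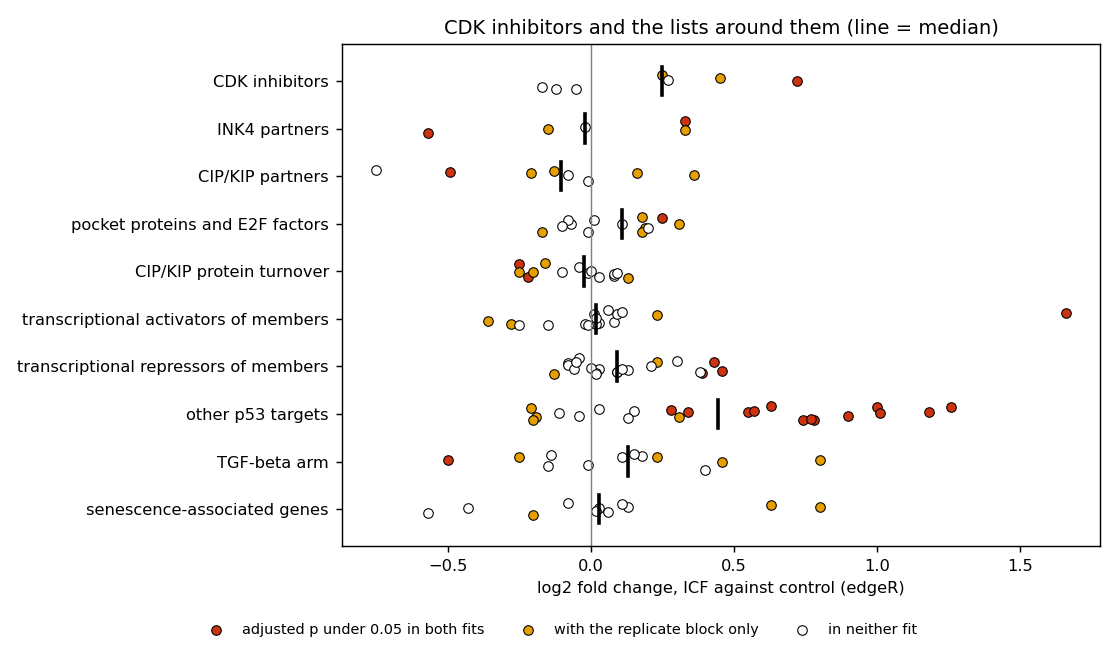
Log2 fold change with ICF of the CDK inhibitors and of each gene of the lists around them, with a line at each median. Red points passed an adjusted p of 0.05 in both edgeR fits, orange points with the replicate block only, and open points in neither. The median of the other p53 targets is 0.44, and those of the partner lists are -0.02 and -0.11.

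The genes most like Cdkn1a in their pattern were sought among the 11924 other genes whose mean reached 100 counts, by the root mean square difference of centred log2 CPM over the 6 samples. Rragd, a small GTPase of amino acid signaling to mTORC1, was nearest at 0.06, and Lpar4, a lysophosphatidic acid receptor, and 4930522L14Rik followed, both at 0.07. The Rragd level was 29.6, 29.2 and 37.0 CPM in the control and 44.5, 45.2 and 63.5 CPM with ICF. As with Cdkn1a, replicate 3 was the highest sample of each group for all of these genes. That follows from their being picked for likeness over the same samples.

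Markers of cell types were checked as well. Of all genes, 3.47% were higher and 4.38% lower, and 14.6% and 15.3% in the paired fit. In the study, retinoic acid was meant to steer the embryoid bodies toward immature mesenchymal cells, so the mesenchymal list covers the intended cells too. Of 11 markers of mesenchymal cells and fibroblasts tested, 2 were higher with ICF and 0 lower, and in the paired edgeR fit 4 and 0. These were Col1a1 and Col3a1 (log2 fold changes 0.75 and 0.73, adjusted p = 0.022 and 0.048, edgeR) and, in the paired fit, Col1a2 and Twist1 too. The summed level of this list was 234 to 267.5 CPM in the control and 269.1 to 293 CPM with ICF. The groups did not overlap, but the gap was narrow beside the spread within the control. Most of this sum came from Pdgfra, a receptor of early mesoderm too, at 178 and 182 CPM (0.03, adjusted p = 0.75, edgeR). Dcn, a fibroblast proteoglycan, was at 8.98 and 8.28 CPM (-0.12, adjusted p = 0.77), and Lum, the marker of this list that was not tested, had 0 to 4 counts. The iPSCs had been grown on fibroblast feeder cells, which the methods say were removed before embryoid bodies were formed. The part of such cells in the Cdkn1a and Cdkn2b values was not tested. Of 10 pluripotency markers 0 were higher and 1, Tdgf1, lower (-0.81, adjusted p = 0.0028, edgeR), and in the paired edgeR fit 1, Dnmt3b, and 3, with Dppa5a and Utf1 beside Tdgf1. Of 10 neural markers 1, Neurod1 (1.35, adjusted p = 0.0047, edgeR), was higher and 1, Elavl3 (-1.32, adjusted p = 0.042), lower (4 and 2 in the paired fit), with summed levels of 146.5 to 167 CPM and 137.5 to 148 CPM. Of 8 endoderm markers 0 were higher and 1, Sox17 (-0.34, adjusted p = 0.045, edgeR), lower (2 and 2), with 1212 to 1613 CPM and 1377 to 1558 CPM. Of 5 blood and endothelial markers tested 0 passed (in the paired fit 1, Cdh5, and 0), with 65.0 to 79.0 CPM and 68.2 to 101 CPM, while Hbb-bt was at 0 in all samples, Hba-a1 had at most 1 count and Ptprc at most 8.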

How the data were processed

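RNA sequencing covered 3 control and 3 ICF samples. The authors made strand-specific mRNA libraries, sequenced single reads with 75 cycles, and used bcl2fastq 2.19 (per the labels), FastQC, Trimmomatic, HISAT2 and HTSeq. The deposited values are whole-number counts per Ensembl gene, not normalized, 1 file per sample. The labels name GRCm38 and hg38, and the identifiers are those of mouse. Other versions and the strand setting are not given in the sources used here. HTSeq leaves out reads with several alignments. Rows that name no gene held 38.1% to 40.3% of the reads in a file and were left out. Names, coordinates and lengths came from GENCODE M21 (GRCm38), which named 50462 of the 50686 identifiers, and promoter sequences from RefSeq (GRCm38.p6).

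Counts were fitted with edgeR 4.0.16 in R 4.3.3 (quasi-likelihood test, TMM, filterByExpr, Benjamini-Hochberg adjustment over 16729 genes, threshold 0.05). The unadjusted p was below 0.05 for 4277 genes. Standard errors (SE) came from the SDs of log2 CPM. No 75-base stretch of a member's longest transcript occurred in another gene in the same sense. Pairing came from the donor numbers: deviations of same-numbered samples correlated across genes with r of 0.15, 0.2 and 0.38, but control replicate 1 with ICF replicate 2 gave 0.26 and control replicate 2 with ICF replicate 1 gave 0.17, so the numbers did not separate replicates 1 and 2, whereas replicate 3 correlated best with its own number. Blocked values stand beside the main ones where the block changed a call or a count. Alternatives were DESeq2 1.42.0, RLE size factors, other filters, the replicate block, replicate 3 as a batch, the counts of ICF replicate 3 divided by 4, each sample left out, and another gene length; leaving out each pair was added after seeing the data. The paired fit holds only 3 pairs, and fits with a pair left out only 2, so their p-values measure little of the spread between replicates. The members and lists were chosen with earlier results of these data known. Genes named are the 7 members, neighbours within 50 kb, the list genes with the largest changes, and the 3 genes most like a member past the threshold; other genes on the lists and those with few counts were named after their values were seen. The values of 1 list gene are not reported here.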

Additional observations from a re-analysis of the deposited data

How the results depend on the processing

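The 7 log2 fold changes were recomputed under 17 other settings. Cdkn1a was higher in all 17, by 0.50 to 0.85, and passed in 15 of them. The exceptions were those without control replicate 1 (0.70) or control replicate 2 (0.67). Without ICF replicate 3, Cdkn2d moved to -0.05 and Cdkn2a to -0.001, neither past the threshold. Cdkn2c and Cdkn2d kept their direction and passed in none of the 17.

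The replicate block raised the calls in edgeR to 2445 genes higher and 2561 lower and to 3 members higher, with Cdkn1c at 0.24 and Cdkn2b at 0.45, and changed the call of no other member. In DESeq2 the block gave 1457 and 1662 genes and 2 members, with Cdkn1c at 0.23, and DESeq2 without it 943 and 1109 genes. Replicate 3 as a batch gave 2823 and 2876 genes and 3 members, with Cdkn1c at 0.24 and Cdkn2b at 0.45. With pair 1, 2 or 3 left out of the block fit, 1563, 1932 or 2162 genes were higher, 1769, 2127 or 2359 were lower, 2, 3 or 3 members were higher, and Cdkn1c was at 0.31, 0.19 or 0.20. Cdkn2b was at 0.52 without pair 2 and 0.41 without pair 3. Without pair 3, 1 member, Cdkn1b, was lower (-0.19), and Cdkn2a turned to 0.02.

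With each sample left out, 85 to 724 genes were higher, 215 to 928 lower and 0 to 1 members higher. Cdkn1a ranged from 0.50 to 0.85 and Cdkn1c from -0.04 to 0.50. The cause of these changes was not tested. Cdkn2b and Cdkn2c had the lowest counts of the 7, with means of 154.5 and 138 that include ICF replicate 3 as given. With the counts of ICF replicate 3 divided by 4, their fold changes were 0.42 and 0.29.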
